A study of Saccharomyces cerevisiae with 6 samples.

Results

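The 132 nuclear genes for cytosolic ribosomal proteins of budding yeast were followed through early S phase by DNA copy number. They were chosen by name, as every nuclear gene of the R64 gene table (the assembly of sacCer3) whose symbol is RPL or RPS, a number and an optional A or B. This gave 132 of 6431 nuclear genes, 76 for the large subunit and 56 for the small one. Genes for mitochondrial ribosomal proteins (MRPL, MRPS) and for the P stalk (RPP) carry other symbols and were not members. Cells of strain W303-1a were released from an α-factor block in G1 and their genomic DNA was sequenced. The mutant labels were orc2ΔN200, in which the first 200 residues of Orc2 are missing, and orc2-I194E, in which 1 residue of that stretch is changed from isoleucine to glutamate. WT carried full-length Orc2. All 3 strains went through the same growth protocol, which also depletes an orc2-1 product by a change of medium, and each was sampled 30 min after release (S phase) and at 0 min (G1 phase). There was 1 library per strain and time, 6 in all, so no replicate exists, no test across samples could be made, and intervals cover counting error only.

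Each yeast ribosome contains a single copy of nearly every ribosomal protein, and most of these proteins are encoded by a pair of paralogous genes, A and B, kept since an ancient duplication of the genome. The genes are among the most strongly transcribed in growing cells. Their promoters are bound by Rap1 and by Fhl1 with its coactivator Ifh1, and signals from the TOR kinase set their output. Orc2 belongs to the origin recognition complex, which sits on origins of replication and helps to place the MCM helicase on them in G1. DNA near an origin that fires early is copied first, and so stands above the genome mean in cells caught in early S phase.

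The level of a gene is given as the log2 of the share of all counts that fell in the 5 kb centred on it in the S library, over the same share in the G1 library of that strain. A level of 0 is the genome mean. Levels or differences of at least 0.2 in size (1.15-fold) were counted as high or low, or as risen or fallen. All 132 members had a level, 126 of them from 5 bins of 1 kb and 6 from 4, and 5986 of the other nuclear genes had one. The windows of members held a median of 1176 to 1286 counts per library, and the standard error from counting was near 0.058 for a level and 0.082 for a difference between strains. Library totals lay between 3235720 and 3376203 counts.

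At the ORC2 gene itself, the copy level crossed between times under the labels orc2-I194E and WT. The bin at 361001 to 362000 on chromosome II stood at 2.67 in S and 1.76 in G1 under the label orc2-I194E, and at 1.81 in S and 2.64 in G1 under the label WT, in multiples of its flanks. At LEU2, a selection marker gene, the values were 2.42 and 1.61 labelled orc2-I194E and 1.73 and 2.57 labelled WT. Strains are therefore named by their labels, and the medians and counts over all members, by subunit, by gene copies and by distance from an end are also given with these labels exchanged at 1 time. Only the levels of orc2ΔN200 do not rest on these 4 libraries.

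The ribosomal protein genes as a group lay close to the genome mean at 30 min under every label, and few of them were late in the profile labelled WT. The median level of the 132 members was -0.017 in orc2ΔN200, -0.027 in orc2-I194E and 0.044 in WT. The other genes had medians of -0.020, -0.030 and 0.016 in the same strains. In WT only 7 members (5.30%) were at or below -0.2, where 13.6% of the other genes were. At or above 0.2 there were 9 members (6.82%), near the 8.69% of the other genes. In orc2ΔN200, 8 members were high (6.06%, background 7.17%) and 3 low (RPL11A and RPL16A among them, background 4.26%). In orc2-I194E, 11 were high (8.33%, background 8.57%) and 4 low (RPS30B, RPL3, RPS18A and RPL37A, 3.03%, background 5.55%). Beyond the counting interval, 23 members lay above and 20 below the genome mean in orc2ΔN200 (background 18.4% and 21.7%), 28 and 27 in orc2-I194E (19.1% and 23.2%), and 36 and 17 in WT (26.6% and 25%). The members also spread less than the other genes in WT, with SDs over genes of 0.138 and 0.169. In the mutants the SDs over members were 0.118 and 0.135, against 0.128 and 0.139 over the other genes.

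**Figure D1:**
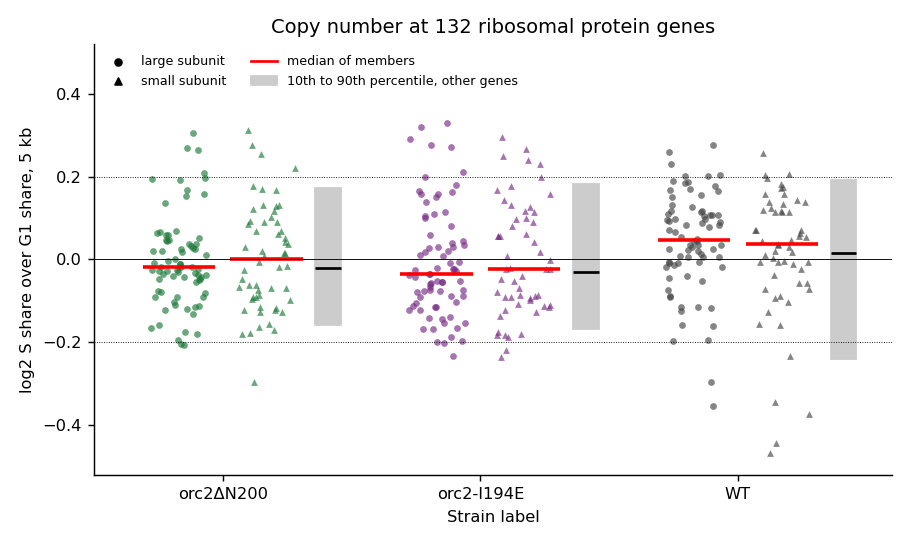
Level (log2 of the S share over the G1 share, 5 kb) of each ribosomal protein gene under the 3 strain labels, with circles for the large subunit and triangles for the small one, red lines for medians, and grey bars for the 10th to 90th percentile of the other genes with their median in black. The WT points thin out below -0.2, where only 7 members lie, while the medians of both mutants sit at or below 0 apart from 0.0013 for the small subunit in orc2ΔN200.

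The shortage of low members in WT went with the S library of that label. With the labels orc2-I194E and WT swapped between their S libraries, the median of the members was 0.032 in orc2-I194E and -0.024 in WT, against 0.016 and -0.026 for the other genes, and 6 members were low in WT against 4.38% of the other genes. With the G1 libraries exchanged, 5 members were low in WT against 14.3% of the other genes. Pooling the counts of all 617 bins under the windows gave -0.00061 in orc2ΔN200 with a counting interval of -0.011 to 0.0095, and -0.0023 in orc2-I194E with one of -0.013 to 0.0079. In WT it gave 0.030, with an interval of 0.019 to 0.040 that does not hold 0. These pooled intervals leave out the spread between members, so they do not test the group against the genome mean.

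The highest member in WT was RPL4B (YDR012W, chromosome IV, 471853 to 472941), which encodes a large-subunit protein with an extension into the wall of the peptide exit tunnel. Its window held 1009 counts in S and 912 in G1 in orc2ΔN200, 1023 and 925 in orc2-I194E, and 1111 and 890 in WT. Its levels were thus 0.19, 0.21 and 0.28 in these strains, high in orc2-I194E and WT and just short of that in orc2ΔN200. RPL2A (chromosome VI, 220507 to 221418), for a protein beside the peptidyl transferase centre, followed with 0.16 in orc2ΔN200, 0.16 in orc2-I194E and 0.26 in WT. RPS8B had 0.13, 0.018 and 0.26 in the same order, and RPL14A -0.029, -0.024 and 0.23. RPS9A, for a small-subunit protein that affects decoding accuracy, had -0.098, -0.021 and 0.21. The remaining members of the first 10 were RPS14B, RPL23A, RPL19A, RPL12A and RPS27B, with WT levels of 0.20, and among these RPL23A alone was high in both mutants (0.21 and 0.27). The counting interval of a single level spans about 0.11 on each side, so the order within these 10 is not resolved.

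At the other extreme stood RPS10B (YMR230W, chromosome XIII, 732414 to 733141), for a protein of the beak of the small subunit. Its counts were 1188 in S and 1287 in G1 in orc2ΔN200, 1219 and 1450 in orc2-I194E, and 967 and 1296 in WT. That gives levels of -0.070, -0.18 and -0.47, the WT value being the lowest of any member under any label. RPS22B (chromosome XII, 856442 to 857317) held 1259 and 1385, 1276 and 1386, and 994 and 1310 counts in the same order, and had levels of -0.092, -0.053 and -0.44. RPS21B (chromosome X) was at -0.062, -0.022 and -0.37, and RPL4A (chromosome II, 300166 to 301254) at -0.025, 0.10 and -0.35. RPL11A, which encodes a protein bound to the 5S ribosomal RNA together with Rpl5, had -0.21, -0.056 and -0.30. RPS21A was the last member below -0.2 in WT, with -0.18, -0.070 and -0.23. RPL22A, RPL15A and RPL9A, also among the lowest 10, were at -0.20, -0.20 and -0.16 in WT. Choosing extremes by the WT value favours chance extremes in WT, and values chosen this way tend to lie nearer 0 in other libraries. The medians of the 7 low members were -0.092 in orc2ΔN200, -0.053 in orc2-I194E and -0.35 in WT, and those of the 812 other genes that were low in WT were -0.11, -0.11 and -0.30.

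Against WT, more members lay below than above in both mutants, though most differences were small. The median difference was -0.053 in orc2ΔN200 minus WT and -0.048 in orc2-I194E minus WT, where the other genes had -0.0067 and -0.0065. In each mutant 82 of 132 members (62.1%) lay below WT, against 51.7% and 51.6% of the other genes. Past 0.2, 10 members fell in orc2ΔN200 (7.58%, background 9.44%) and 7 rose (5.30%, background 10.4%). In orc2-I194E, 23 fell (17.4%, background 13%) and 11 rose (8.33%, background 12.6%). By the counting interval, 21 fell and 12 rose in orc2ΔN200 (background 15.7% and 15.9%), and 27 fell and 17 rose in orc2-I194E (background 19.5% and 17.3%). Both comparisons use the same WT libraries. The G1 libraries alone, which hold no replication, had a median difference of 0.00066 for orc2ΔN200 over WT and 0.0011 for orc2-I194E over WT at the members, with 0 and 1 members past 0.2 in either direction. Among the other genes the G1 ratio reached 0.2 in 0.0501% (orc2ΔN200) and 0.134% (orc2-I194E), and -0.2 in 0.134% and 0.2%.

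**Figure D2:**
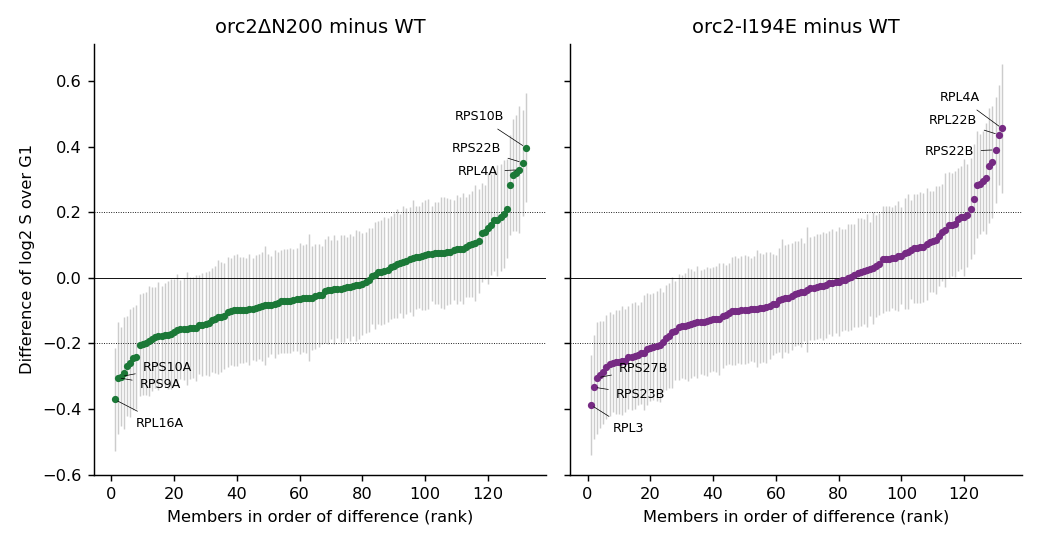
Difference in level from WT for every ribosomal protein gene, ranked within each mutant, with bars for the 95% counting interval and dotted lines at 0.2 and -0.2. The curve crosses 0 after 82 of 132 members in both panels, and the 3 lowest and 3 highest members are named.

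When the labels orc2-I194E and WT were swapped between S libraries, the median difference was 0.0050 in orc2ΔN200 and 0.062 in orc2-I194E, where the other genes had 0.0047 and 0.013. Then 2 members fell and 3 rose in orc2ΔN200 (other genes 1.54% and 1.60%), and 11 fell while 16 rose in orc2-I194E (other genes 12.8% and 11.7%). A swap between G1 libraries gave -0.035 and -0.062, with 13 members fallen and 6 risen in orc2ΔN200 (other genes 9.09% and 10.5%) and 16 fallen and 11 risen in orc2-I194E (other genes 11.7% and 12.8%). In orc2-I194E minus WT the S exchange swaps which S library is subtracted, so a reversal there is largely built in. Its values are those of the G1 exchange with opposite sign and are not separate evidence. In orc2ΔN200 minus WT, where no such mirror exists, the median moved from -0.053 to 0.0050, near that of the other genes.

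The largest fall in orc2ΔN200 was at RPL16A (YIL133C, chromosome IX, 98527 to 99416). Its window held 1162 counts in S and 1382 in G1 in orc2ΔN200, 1196 and 1348 in orc2-I194E, and 1420 and 1227 in WT. The difference was -0.37 in orc2ΔN200, with a counting interval of -0.53 to -0.21. In orc2-I194E it was -0.27, with one of -0.43 to -0.12. RPS9A (-0.30), RPS10A (-0.30), RPL40A (-0.29) and RPL3 (-0.27) followed in orc2ΔN200. RPL40A encodes a ubiquitin fused to a large-subunit protein. RPL3 (YOR063W, chromosome XV, 444686 to 445849) is a single-copy gene for a protein near the peptidyl transferase centre, and it fell most in orc2-I194E. It held 1270 and 1420 counts in S and G1 in orc2ΔN200, 1186 and 1460 in orc2-I194E, and 1516 and 1321 in WT, and its difference in orc2-I194E was -0.39 (-0.54 to -0.23). The other large falls in orc2-I194E were RPS23B (-0.33), whose product takes part in decoding, RPS27B (-0.31), RPL13B (-0.30) and RPS18A (-0.29).

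The largest rises were mostly at members that were low in WT. WT is subtracted in each difference, so a low WT value raises the difference by construction. RPS10B rose by 0.40 in orc2ΔN200 (0.23 to 0.56) and RPL4A by 0.46 in orc2-I194E (0.26 to 0.65). RPS22B (0.35 in orc2ΔN200, 0.39 in orc2-I194E), RPL4A (0.33 in orc2ΔN200), RPS21B (0.31 and 0.35) and RPL8B (0.32 and 0.34) completed the 5 largest in orc2ΔN200. RPL22B (YFL034C-A, chromosome VI, 64243 to 64932) was among the 5 in orc2-I194E at 0.44. Its counts were 1505 in S and 1383 in G1 in orc2ΔN200, 1576 and 1322 in orc2-I194E, and 1299 and 1365 in WT. RPL8B and RPL22B were not low in WT. RPL8B stood at 0.27 in orc2ΔN200, 0.29 in orc2-I194E and -0.051 in WT, and RPL22B at 0.17, 0.32 and -0.12.

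Genes of the large subunit had medians of -0.019 in orc2ΔN200, -0.036 in orc2-I194E and 0.047 in WT. Those of the small subunit had 0.0013, -0.022 and 0.036. The median difference from WT was -0.063 (orc2ΔN200) and -0.086 (orc2-I194E) for the large subunit, with 7 and 13 of 76 fallen (9.21% and 17.1%, other genes 9.44% and 13%) and 3 and 4 risen (3.95% and 5.26%, other genes 10.4% and 12.6%). For the small subunit it was -0.016 and -0.025, with 3 and 10 of 56 fallen (5.36% and 17.9%) and 4 and 7 risen (7.14% and 12.5%). With S labels exchanged, the median differences were 0.012 and 0.073 for the large subunit and -0.0056 and 0.051 for the small one, and with G1 labels exchanged -0.041 and -0.073, and -0.011 and -0.051. Low in WT were 5 of 56 small-subunit members and 2 of 76 large-subunit ones, against 13.6% of the other genes. With S labels exchanged 3 of each subunit were low (other genes 4.38%). With G1 labels exchanged 4 small-subunit members and 1 large-subunit member were low (other genes 14.3%). Pooled counts gave 0.045 in WT for the large subunit (0.032 to 0.058) and 0.014 for the small one (-0.0015 to 0.029), while in both mutants the intervals of both subunits held 0. Counting error alone enters these intervals, not the spread between members, so they do not test the subunits against each other.

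Copy number in the genome separated the members in another way. The 18 single-copy genes had median levels of 0.068 in orc2ΔN200, 0.091 in orc2-I194E and 0.042 in WT, and none of them was high or low in WT. The 114 members with a paralog had -0.021, -0.039 and 0.044. The median difference from WT was 0.074 and 0.044 for single-copy genes and -0.063 and -0.066 for duplicated ones. In orc2ΔN200, 11 of 18 single-copy genes lay above WT, and 39 of 114 duplicated genes did. Past 0.2, RPL3 was the single-copy gene that fell in each mutant, and none rose. RPL25, whose product offers a docking site for the signal recognition particle at the exit tunnel, was the highest single-copy gene in orc2-I194E (0.26 in orc2ΔN200, 0.33 in orc2-I194E and 0.19 in WT). With S labels exchanged, the median differences were 0.020 and 0.0064 for single-copy genes and -0.0044 and 0.079 for duplicated ones. With G1 labels exchanged they were 0.015 and -0.0064, and -0.046 and -0.079. In orc2-I194E minus WT the exchange of S labels gives, by arithmetic, the values of the G1 exchange with opposite sign. The contrast between single-copy and duplicated genes changed sign there with the S labels, but this was largely built in. The split by copy number was made after values had been seen.

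Paralogs encode nearly the same protein, but the level of one copy told little about the level of the other. There were 57 pairs, 53 of them with their copies on different chromosomes (the 4 others were RPL19, RPL24, RPL35 and RPL41). Across pairs, Pearson's r between the A and the B copy was -0.062 in orc2ΔN200, 0.12 in orc2-I194E and 0.021 in WT, as a description of 57 points per strain that share their libraries. The median absolute difference between copies was 0.13 in orc2ΔN200, 0.11 in orc2-I194E and 0.091 in WT. The spread of copies about the pair, as the root mean square difference over the square root of 2, was 0.118, 0.123 and 0.141, about as large as the SD over all duplicated members (0.115, 0.131 and 0.143). Beyond the counting interval, 22 pairs differed in orc2ΔN200, 18 in orc2-I194E and 18 in WT. Which letter a copy carries made little difference in orc2-I194E (A higher in 28, B in 29), while B was the higher in 38 pairs in orc2ΔN200 and in 34 in WT.

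**Figure D3:**
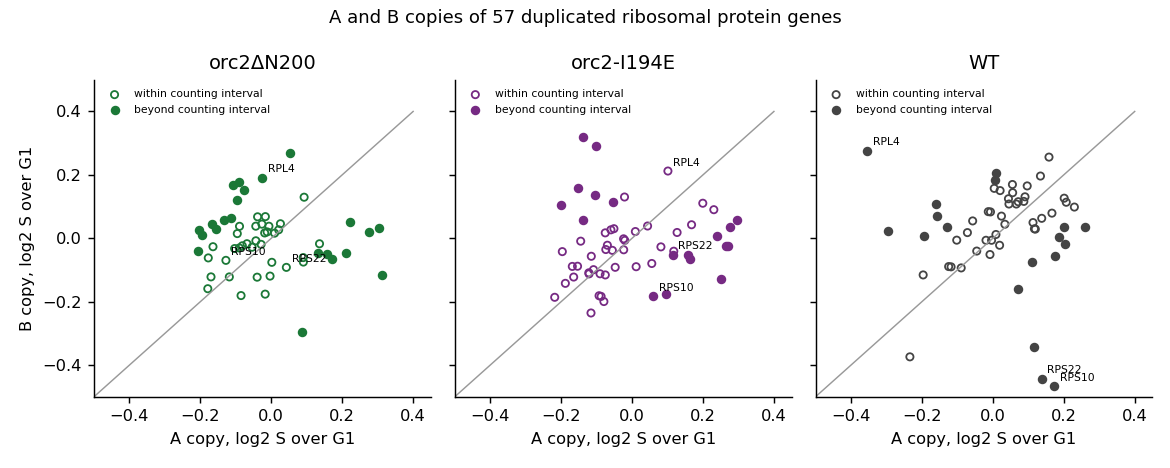
Level of the B copy against that of the A copy for 57 duplicated ribosomal protein genes under each label, with filled points where the copies differ beyond the 95% counting interval and a line of equality. The 3 pairs with the largest difference in WT are named, and points scatter about the line with Pearson's r between -0.062 and 0.12.

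The widest pair in WT was RPS10, with the A copy on chromosome XV and the B copy on chromosome XIII. RPS10A and RPS10B stood at -0.13 and -0.070 in orc2ΔN200, at 0.060 and -0.18 in orc2-I194E, and at 0.17 and -0.47 in WT. A minus B was -0.058 in orc2ΔN200, within counting error of 0, 0.24 in orc2-I194E (0.088 to 0.40) and 0.64 in WT (0.48 to 0.80). RPL4 followed with the opposite letter higher, since RPL4A and RPL4B had -0.025 and 0.19 in orc2ΔN200, 0.10 and 0.21 in orc2-I194E, and -0.35 and 0.28 in WT. RPS22A and RPS22B had 0.043 and -0.092, 0.12 and -0.053, and 0.14 and -0.44 in the same order of strains. RPL11A and RPL11B had -0.21 and -0.039, -0.056 and -0.038, and -0.30 and 0.024. At RPS21 both copies were low in WT, with -0.18 and -0.062 in orc2ΔN200, -0.070 and -0.022 in orc2-I194E, and -0.23 and -0.37 in WT.

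Near-identical copies can share sequencing reads, and the bins that hold the genes were thinner than their surroundings. G1 counts per bin over the bins of the gene, relative to the rest of its 5 kb, had a median of 0.862 over members, 0.852 for duplicated members, 0.956 for single-copy members and 0.996 for the other genes. RPS8B (0.410), RPS1A (0.424) and RPS4B (0.559) had the thinnest bins. Which reads of such genes were kept or assigned is not given in the sources used here, so the levels of duplicated genes are uncertain within the gene itself. Without the bins of the gene, the medians of the members were -0.010 in orc2ΔN200, -0.037 in orc2-I194E and 0.041 in WT, 9 members were low in WT against 14.8% of the other genes, and the median difference between copies in WT was 0.12.

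Some members lie side by side and share their windows. There were 13 couples whose windows overlapped, with 23 members in them, and their values are not independent. For RPS16 with RPL13 and for RPS9 with RPL21, both copies form a couple, each on another chromosome. RPL13B and RPS16A on chromosome XIII had 0.017 and 0.090 in orc2ΔN200, -0.11 and -0.090 in orc2-I194E, and 0.18 and 0.12 in WT, while RPL13A and RPS16B on chromosome IV had -0.019 and -0.075, -0.12 and -0.11, and 0.0047 and 0.029. In WT the couple on chromosome XIII was thus the higher, and in orc2-I194E both couples lay between -0.12 and -0.090. RPS9A and RPL21B on chromosome XVI had -0.098 and 0.046, -0.021 and -0.052, and 0.21 and 0.17, and RPS9B and RPL21A on chromosome II had 0.12 and 0.026, 0.13 and 0.16, and 0.11 and 0.097.

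Averaged around the members and turned so that transcription runs one way, the profile labelled WT had a broad rise over the genes, absent under the mutant labels. This profile was not rerun with labels exchanged. By the 5-kb levels with S labels exchanged, the members had a WT median of -0.024, against -0.026 for the other genes. In orc2-I194E they then had 0.032, against 0.016. The mean level over 2 kb to each side of the midpoint was -0.0021 in orc2ΔN200, -0.0023 in orc2-I194E and 0.030 in WT, and around the other genes it was -0.0074, -0.0084 and -0.011. In WT the mean was 0.034 from 10 to 1 kb upstream and 0.017 from 1 to 10 kb downstream. Farther out, from 11 to 30 kb, it was 0.0086 upstream and -0.019 downstream. A fork that moves in the direction of transcription copies the upstream side first. The 10 kb upstream stood at least 0.1 above the 10 kb downstream at 12 members in orc2ΔN200, 11 in orc2-I194E and 28 in WT, of 130 with enough bins. The reverse held at 10, 6 and 15. In orc2ΔN200 that is 9.23% and 7.69% of the members, against 8.83% and 8.68% of the other genes. In orc2-I194E it is 8.46% and 4.62%, against 8.68% and 9.97%, and in WT 21.5% and 11.5%, against 19.5% and 16.5%.

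**Figure D4:**
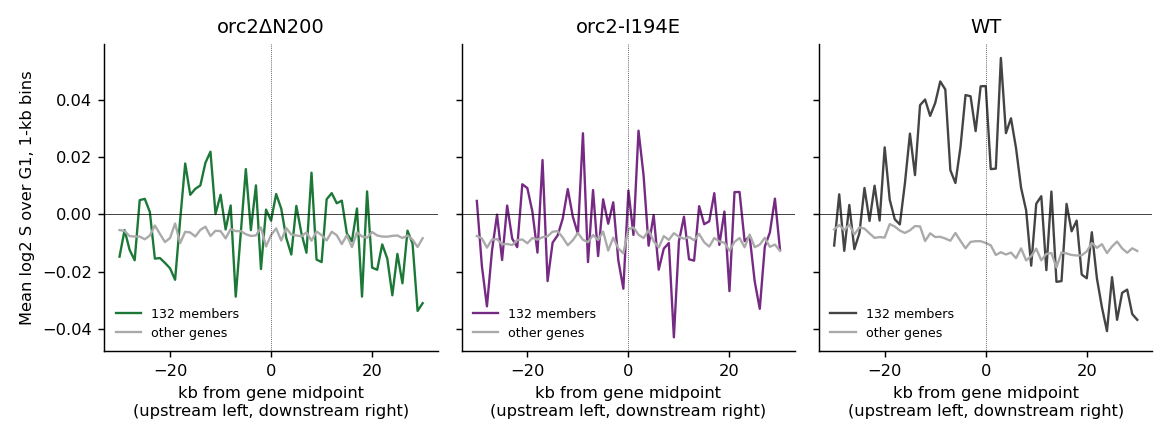
Mean log2 of the S share over the G1 share in 1-kb bins from 30 kb upstream to 30 kb downstream of the midpoint of the members (coloured) and of the other genes (grey), under each label. The WT curve of the members stands above its grey curve near the genes, with a mean of 0.030 over the central bins against -0.011, and the mutant means there are -0.0021 and -0.0023 against -0.0074 and -0.0084. The labels are those deposited, and the curves were not redrawn with labels exchanged.

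Few members lie near centromeres or chromosome ends. Only 2 of 132 (1.52%) lay within 20 kb of a centromere, where 5.76% of the other genes do, and 0 lay within 30 kb of a chromosome end, where 6.68% do. The 2 centromeric members are the paralogs RPL14A and RPL14B, on chromosomes XI and VIII. RPL14A had -0.029 in orc2ΔN200, -0.024 in orc2-I194E and 0.23 in WT, and RPL14B had -0.019, -0.036 and 0.098. RPL27A, 21.4 kb from its centromere by gene midpoint, was next, with -0.040, -0.079 and 0.12. Over the 130 remaining members the WT median was 0.041, with 7 low (5.38%), where the other genes of the same regions had 0.0011 and 14.9%. More than 100 kb from a centromere, 104 members had a WT median of 0.048 and the other genes -0.016. The WT median of the members was thus as high far from centromeres as over all members.

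Nearest to an end were RPL8A (35.6 kb), RPL6B and RPS4A. RPL8A had 0.053 in orc2ΔN200, -0.10 in orc2-I194E and -0.0081 in WT, RPL6B 0.15, 0.16 and 0.083, and RPS4A 0.31, 0.24 and 0.14. A limit of 100 kb from an end, chosen after seeing the values, split the members more clearly in the mutants. The 30 members within it had medians of 0.080 in orc2ΔN200, 0.11 in orc2-I194E and 0.11 in WT. The 102 farther in had -0.033, -0.058 and 0.029. The other genes showed a split of the same kind, with 0.046, 0.061 and 0.039 within 100 kb and -0.037, -0.052 and 0.0086 farther in. The median difference from WT was -0.063 in orc2ΔN200 and -0.082 in orc2-I194E for the members farther in, and 0.031 and 0.0077 for those within 100 kb. The other genes had the same order, with -0.012 and -0.023 farther in and 0.016 and 0.038 within 100 kb. With S labels exchanged, the members farther in had 0.0062 and 0.080 and those within 100 kb 0.00084 and 0.017, and with G1 labels exchanged -0.042 and -0.080, and -0.017 and -0.017.

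**Figure D5:**
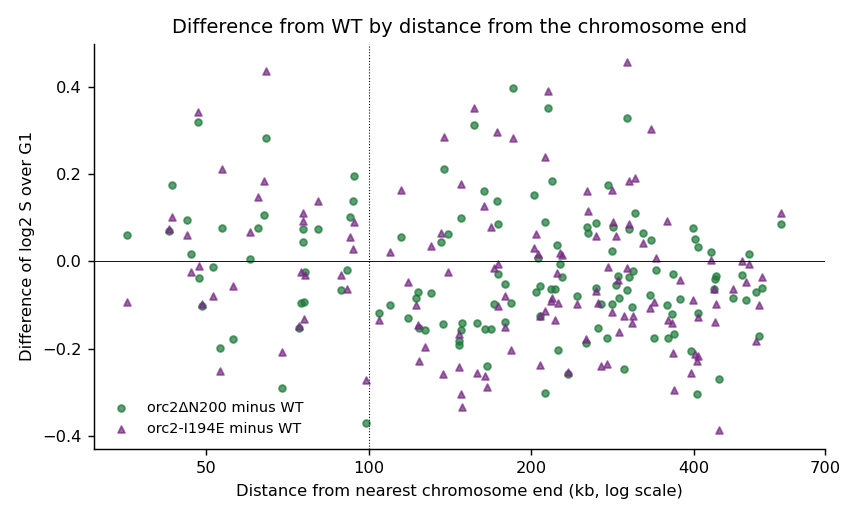
Difference in level from WT of each ribosomal protein gene against its distance from the nearest chromosome end on a log scale, with circles for orc2ΔN200 and triangles for orc2-I194E. Left of the dotted line at 100 kb the points lie on both sides of 0, with medians of 0.031 and 0.0077, and right of it most lie below 0, with medians of -0.063 and -0.082.

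Of the 13 members that were high in at least 1 mutant, 9 lay within 100 kb of an end, where 22.7% of all members lie, and 2 were also high in WT. Of the 659 other genes high in at least 1 mutant, 53.0% lay within 100 kb of an end, and 163 were also high in WT. High in both mutants were RPS4A, RPS19A, RPL8B, RPL25, RPS14A and RPL23A. These are 6 of 132 members, a share near that of the other genes (283 of 5986). RPS14A, the only member on chromosome III, had 0.22 in orc2ΔN200, 0.30 in orc2-I194E and 0.010 in WT. Its paralog RPS14B on chromosome X, whose splicing is repressed by the Rps14 protein, had 0.051, 0.056 and 0.20, so the order of the copies was opposite in the mutants and in WT. RPL22B, RPL33A, RPS1A, RPS26A and RPL4B were high in orc2-I194E but not in orc2ΔN200, with 0.21 to 0.32.

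Lists of genes that work with the ribosomal proteins are given beside the members, as values under the labels deposited. Among all genes outside the members, 13.6% were low in WT. The share that fell was 9.44% in orc2ΔN200 and 13% in orc2-I194E, and the share that rose was 10.4% and 12.6%. The 5 genes of the P stalk, which recruits translation factors to the large subunit, had medians of -0.059 in orc2ΔN200, -0.090 in orc2-I194E and -0.048 in WT. RPP0, the base of the stalk, stood at -0.14, -0.22 and -0.048, and RPP2B at -0.14, -0.24 and -0.016, the 1 stalk gene that fell past 0.2 (in orc2-I194E). RPP2A had 0.093, 0.17 and 0.057, RPP1A -0.0033, -0.090 and -0.064, and RPP1B -0.059, 0.044 and -0.11. Among 9 regulators of ribosomal protein genes, none rose or fell past 0.2 in either mutant, and the medians were 0.014, 0.0037 and -0.016. TOR2, a TOR kinase gene, was the only one high in WT (0.13 in orc2ΔN200, 0.065 in orc2-I194E and 0.21 in WT), with CRF1, a corepressor gene, at 0.10, 0.060 and 0.15. FHL1 had -0.012, -0.16 and -0.18, and RAP1 -0.018, -0.071 and -0.12. IFH1, HMO1, SFP1, SCH9 and TOR1 lay between -0.12 and 0.016 in WT.

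The 43 mitochondrial ribosomal protein genes with the symbol MRPL or MRPS and a number had medians of -0.057 in orc2ΔN200, -0.035 in orc2-I194E and -0.032 in WT. Of them, 9 (20.9%) were low in WT. Past 0.2, 3 fell in each mutant (6.98%), while 5 rose in orc2ΔN200 (11.6%) and 6 in orc2-I194E. Only 1 was low in WT with S labels exchanged, where the share of the other genes was also smaller, at 4.38%. Of 7 RNA polymerase I genes, which make the enzyme that transcribes ribosomal RNA, 4 were low in WT (RPA14, RPA34, RPA43 and RPA190). RPA43 and RPA190 lie side by side on chromosome XV with overlapping windows, so their values are not independent. The list medians were -0.096 in orc2ΔN200, -0.097 in orc2-I194E and -0.23 in WT. With S labels exchanged, 1 of the 7 was low in WT (other genes 4.38%), and the list medians were -0.24 in orc2-I194E and -0.12 in WT. The 33 ribosome assembly genes had -0.035, -0.038 and 0.0060, with 3 high and 3 low in WT. Of these, 7 fell in orc2ΔN200 (21.2%) and 4 in orc2-I194E (12.1%), and 1 and 2 rose. The exchange of S labels left 2 and 6 fallen (other genes 1.54% and 12.8%). ACL4, whose product is the dedicated chaperone of Rpl4, was low in WT (-0.37) as RPL4A was, and it rose in both mutants, by 0.31 in orc2ΔN200 and 0.28 in orc2-I194E. RRB1, for the chaperone of Rpl3, was the highest of the list in WT at 0.25. Of 15 translation factor genes 14 had a level, with medians of -0.051, -0.035 and 0.025. Past 0.2, 3 of these factors rose in orc2ΔN200 and 2 in orc2-I194E, and 2 and 3 fell. TIF1 and TIF2, paralogs for the same helicase eIF4A, were both low in WT (-0.34 and -0.37) and rose in both mutants, by 0.21 and 0.29 in orc2ΔN200 and by 0.33 each in orc2-I194E. They lie beside RPS21A (chromosome XI) and RPS21B (chromosome X), the pair of which both copies were low in WT, so these values are not independent of theirs. HYP2, for eIF5A, was the only one high in WT (0.28) and fell in both, with differences of -0.22 and -0.29.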

How the data were processed

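The values used are counts per bin of 1 kb, whole numbers as deposited, with no scaling by the authors visible in them. Per the submitters' processing notes, the build was sacCer3 and the tools were bedtools 2.31.0, SAMtools 1.18, Picard 2.27.5, Bowtie2 2.5.3 and R 4.3.0, with no role stated. Filters, duplicates and the treatment of reads that match several places are not given in the sources used here.

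Everything else was computed with Python 3.11.15, numpy 2.4.6, pandas 2.3.3 and matplotlib 3.10.9. Nuclear bins were kept outside positions 451001 to 490000 of chromosome XII, which hold the rDNA, if every library had a count and G1 counts lay between 0.3 and 3 times the library median, 11273 of 11579 bins. Counts of 5 bins around the gene midpoint were summed (at least 3 kept) and divided by the library's total over kept bins. Intervals are 95% Poisson intervals on the log2 scale and cover counting error only. The steps were tested on simulated data. Centromeres were placed between the innermost genes of both arms. With 1 library per strain and time no p-value is given.

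Named genes were the 10 highest and 10 lowest members in WT, the 5 largest falls and rises per mutant, the 5 widest pairs, the 3 members nearest a centromere and an end, couples with overlapping windows, and the P-stalk and regulator genes. Any other gene was named after its values were seen. Members, lists and alternatives were chosen with earlier results of these data known. The splits by gene copies and by 100 kb and the upstream comparison were added after seeing the values. Alternatives were the window, the bins of the gene, the G1 denominator, the scaling, the bin filter, exchanged labels, members left out and another call rule. Some genes under the rule for named genes are not reported here.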

Additional observations from a re-analysis of the deposited data

Results flagged for a closer look

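Some members stood on opposite sides of the genome mean in a mutant and in WT, each beyond its own counting interval. The difference between strains was not tested, as each rests on 1 library per strain and time. In orc2ΔN200 these were 4 of 132 members (3.03%), against 2.71% of the other genes, and in orc2-I194E 6 members (4.55%), against 4.28%, so the members were close to the rest of the genome in this respect. Below the mean in orc2ΔN200 and above it in WT were RPL16A (difference -0.37), RPS10A (-0.30) and RPL3 (-0.27). RPL22B was above the mean in orc2ΔN200 and below it in WT, with a difference of 0.28. In orc2-I194E the members below the mean there and above it in WT were RPL3 (-0.39), RPS23B (-0.33), RPS27A (-0.26) and RPS26B (-0.24). RPL22B (0.44) and RPS29A (0.30) were above the mean in orc2-I194E and below it in WT. RPL3 and RPL22B appear for both mutants, which share the WT libraries.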

How the results depend on the processing

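Leaving out members near centromeres or ends, leaving out members with overlapping windows, and dropping the filter on G1 counts kept the medians over all members within counting error, and the counts of fallen and risen members within 1.5 times. The subunit, copy, position and list values were rerun only with labels exchanged, an addition made after seeing the data. The exchange of labels between WT and orc2-I194E mattered most. With S labels exchanged, the median level was 0.032 in orc2-I194E and -0.024 in WT, and the median difference from WT was 0.0050 in orc2ΔN200 and 0.062 in orc2-I194E, all 4 of opposite sign to the values reported. For orc2-I194E minus WT the S exchange mirrors the G1 exchange by arithmetic, so its reversal is largely built in. Fallen members then numbered 2 in orc2ΔN200 and 11 in orc2-I194E (other genes 1.54% and 12.8%), and 3 rose in orc2ΔN200 (other genes 1.60%). With G1 labels exchanged, the WT level was 0.032, and the differences were -0.035 (orc2ΔN200) and -0.062 (orc2-I194E). The bins of the gene alone gave levels of 0.0016 in orc2-I194E, of opposite sign, and 0.063 in WT, with 32 fallen and 13 risen members in orc2ΔN200 (other genes 14.3% and 14.1%), 17 risen in orc2-I194E (other genes 15.6%) and a median paralog difference of 0.19 in WT. Without the bins of the gene the level in orc2-I194E was -0.037. The difference in orc2ΔN200 was then -0.023 with 17 of 132 fallen (other genes 12.5%), and the paralog difference was 0.12. A window of 11 kb also gave 0.12 for paralogs. Scaling by the median bin gave -0.0037 in orc2ΔN200 and -0.011 in orc2-I194E, and a common G1 denominator gave 0.033 in WT. By the counting interval, 21 fell and 12 rose in orc2ΔN200 (other genes 15.7% and 15.9%) and 17 rose in orc2-I194E (other genes 17.3%). Apart from the exchanges, the cause of these shifts was not tested.

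With S labels exchanged, 18 values of named genes changed sign. In WT the levels were 0.0072 at RPL11A, -0.024 at RPL12A, -0.049 at RPL14A, -0.024 at RPL19A, -0.075 at RPS27B and -0.023 at RPS9A. In orc2-I194E, where the exchange swaps which S library is subtracted and a reversal is largely built in, differences also changed sign. They were 0.11 at RPL13B, -0.24 at RPL22B, 0.21 at RPL3, -0.12 at RPL4A, -0.18 at RPL8B, 0.10 at RPS18A, -0.22 at RPS21B, -0.45 at RPS22B, 0.25 at RPS23B and 0.24 at RPS27B. Those in orc2ΔN200 were 0.027 at RPL3 and -0.067 at RPS22B. Several other extremes shrank without a change of sign. In WT the levels became -0.075 at RPS10B, -0.024 at RPS22B, -0.089 at RPS21B, -0.066 at RPL4A and -0.11 at RPS21A. RPS11B went from -0.34 to -0.27 and was still below -0.2. RPL22A (-0.21), RPL15A (-0.23) and RPL9A (-0.21) instead moved below -0.2, from -0.197, -0.195 and -0.16. In orc2ΔN200 the rises became 0.0052 at RPS10B, 0.027 at RPS21B, 0.040 at RPL4A and 0.059 at RPL8B. The falls became -0.18 at RPL16A, -0.17 at RPL40A, -0.12 at RPS10A and -0.075 at RPS9A. Under all alternatives, 334 values of named genes moved by less than 0.1 (levels) or 0.15 (differences). A further 43 moved by more, the WT level of RPS27B with S labels exchanged among them. The 334 include the settings that only leave members out, in which the value of a single gene cannot change. No paired analysis was possible because each strain and time has 1 library. Windows with medians of 1176 to 1286 counts cannot resolve differences near 0.1 between single genes, and variation between cultures is unknown.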
